A study of Mus musculus with 8 samples.

Results

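The genes examined here were the IL-15 and IL-18 axis and 6 further cytokine genes that tumor cells can make, followed across control and DENR KO MC38 cells with and without IFNγ. They were found in the tables by gene symbol: Il15, Il15ra, Il18, Il18bp, Il7, Csf1, Lif, Il6, Tnfsf10 and Il33. Of these 10 genes, 9 were listed among the 23998 genes and loci of the series, 9 in the table of IFNγ-treated cells and 8 in the table of untreated cells. Il33 was listed in neither table and Il6 in the IFNγ table alone.

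MC38 cells derive from a mouse colon adenocarcinoma, and DENR is a factor of translation re-initiation. RNA-seq was made in 4 groups of 2 samples: wild type control cells and DENR KO cells, each either untreated or given 20 ng/ml IFNγ for 4 h. All groups were cultures of the same line, with no other cell type added. The study describes its samples as independent, but neither it nor the labels say which guide RNA lies behind each DENR KO sample or whether the 2 samples of a group were separate cultures, so that p-values measure the spread between these samples, which may be technical.

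IL-15 is a cytokine that keeps NK cells and memory CD8+ T cells alive. Cells that make it commonly present it on their surface bound to the IL-15 receptor α chain, which Il15ra encodes, so ligand and receptor chain act as a pair in the same cell. IL-18 is a cytokine of the IL-1 family that is made as an inactive precursor, cut by inflammatory caspases and held in check by the secreted IL-18 binding protein, Il18bp, a known IFNγ-induced gene. Il7 encodes a survival factor of lymphocytes, Csf1 the growth factor of macrophages, Lif and Il6 a pair of cytokines that signal through gp130, Tnfsf10 the death ligand TRAIL, and Il33 an alarmin of the IL-1 family.

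All 10 genes are protein-coding in the mouse annotation (GENCODE M21, GRCm38), and the coordinates and exon lengths in the deposited tables equalled the annotation for the 9 that were listed. Il15 lies on chromosome 8 from 82331632 to 82403222 on the minus strand, Il15ra on chromosome 2 from 11705290 to 11734317 on the plus strand, Il18 on chromosome 9 from 50554827 to 50581840 on the plus strand and Il18bp on chromosome 7 from 102014885 to 102018690 on the minus strand. Chromosome 3 carries Il7 (7569994 to 7613760, minus strand), Csf1 (107741048 to 107760469, minus strand) and Tnfsf10 (27317028 to 27342427, plus strand). Lif is on chromosome 11 from 4257557 to 4272514, and Il6 is on chromosome 5 from 30013114 to 30019981, both on the plus strand. How the counting treated strand is not given in the sources used here. Il18bp shares 80 exonic bases, 2.64% of its exons, with the antisense gene Numa1, and Il7 shares 105, or 1.85%, with the antisense gene Gm16685, so reads over these bases cannot be assigned with certainty. With IFNγ, Numa1 averaged 4783 normalized counts, against 440 for Il18bp in control and 273 in DENR KO cells. Gm16685 averaged 142.5, close to the 141 of Il7 in either genotype. The part of these neighbours in the values of Il18bp and Il7 was not tested.

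The bases in front of 4 of these genes are shown. Il15ra and Tnfsf10 had the highest ratios of IFNγ-treated to untreated cells. Csf1, the most abundant member, and Il6, the least abundant of those listed, were the 2 that carried a match to the NF-κB motif. Il6 was listed only with IFNγ and has no such ratio, and a link between motif and ratio was not tested. Sequences are from RefSeq (GRCm38.p6), run 5′ to 3′ on the strand of the gene and are cut off where an annotated exon begins. Capitals mark the NF-κB match.
Il15ra, chr2:11705043-11705289, plus strand: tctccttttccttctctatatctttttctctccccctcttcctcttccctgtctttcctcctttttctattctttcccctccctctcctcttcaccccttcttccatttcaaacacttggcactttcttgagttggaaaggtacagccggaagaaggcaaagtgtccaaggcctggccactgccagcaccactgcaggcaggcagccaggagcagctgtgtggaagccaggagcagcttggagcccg
Tnfsf10, chr3:27316827-27317027, plus strand: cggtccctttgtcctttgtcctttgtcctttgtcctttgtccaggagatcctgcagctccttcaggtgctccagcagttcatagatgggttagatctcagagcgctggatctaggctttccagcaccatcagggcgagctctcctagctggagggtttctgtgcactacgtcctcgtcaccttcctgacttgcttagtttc
Csf1, chr3:107760470-107760719, minus strand: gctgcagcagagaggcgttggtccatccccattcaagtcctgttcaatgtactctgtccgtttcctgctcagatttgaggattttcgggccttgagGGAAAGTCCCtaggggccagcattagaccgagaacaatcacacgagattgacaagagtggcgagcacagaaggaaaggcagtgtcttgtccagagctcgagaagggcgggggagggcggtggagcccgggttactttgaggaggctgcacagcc
Il6, chr5:30012864-30013113, plus strand: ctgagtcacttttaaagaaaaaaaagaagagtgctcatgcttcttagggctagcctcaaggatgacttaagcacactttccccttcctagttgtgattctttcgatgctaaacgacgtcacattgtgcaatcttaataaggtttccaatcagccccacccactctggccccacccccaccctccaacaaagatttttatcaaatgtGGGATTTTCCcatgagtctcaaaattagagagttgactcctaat
Promoter windows of 250 bases before to 50 bases after a start were found for 8 of the 10 genes, 10 windows in all. Il15 and Il7 had none. The 250 bases before the start of Il18bp lay wholly within annotated exons and are not shown. Both strands were searched for 2 motifs: the core of the interferon-stimulated response element (GAAANNGAAA) and the NF-κB motif. The response element core was found in 0 of the 10 windows and in 3.44% of all 32851 promoter windows. The NF-κB motif was found in the window of Csf1, 154 bases before the start, and in that of Il6, 44 bases before the start, against 4.51% of all windows. A match is a run of letters and not evidence of binding, and a window without a match says only that these letters are not in it.

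The libraries were alike in depth, with 17369020 to 18403790 reads on genes per sample, of which the 10 most abundant genes took 4.10% to 4.45%. Denr RNA was at 67.0% of the control mean with IFNγ (log2 difference −0.58, adjusted p = 8.2e-06) and at 67.7% untreated (−0.56, adjusted p = 1.1e-04), lower in all DENR KO samples than in all controls of the same treatment. Against its label as a carcinoma line, MC38 showed almost no epithelial marker RNA: Epcam, Krt20 and Cdx2 were not listed, and the 8 markers of that list summed to 0.744 to 1.70 TPM (a level that allows for gene length and library size). The 6 fibroblast markers summed to 347 to 402 TPM, mostly Col1a2 and Dcn. Of the 8 leukocyte markers, Cd3e and Adgre1 were not listed, Ptprc was at or near 0, and Cd68 made up nearly all of the 7.81 to 11.7 TPM. The 4 endothelial markers summed to 0.682 to 1.17 TPM. In bulk samples, fewer cells of a type and less RNA per cell cannot be told apart.

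The members spanned a wide range of levels. In untreated control cells, Csf1 stood far above the others at 245 ± 4.78 TPM (SD, n = 2), followed by Lif at 16.2 ± 2.24 and Il15 at 7.55 ± 0.591. Il15ra (5.52 ± 0.145), Il18bp (4.99 ± 0.238), Il18 (3.98 ± 0.424) and Il7 (3.08 ± 0.328) came next, and Tnfsf10 was near the floor at 0.107 ± 0.103 TPM. The 2 samples of each gene did not overlap those of its neighbour in this order. In untreated DENR KO cells the order was the same, but Il15 overlapped Il15ra, and Il18bp overlapped Il18. With IFNγ, the order in control cells changed to Csf1 (420 ± 12.6 TPM), Lif (50.9 ± 2.18), Il15ra (43.4 ± 0.132), Il18bp (26.7 ± 4.59), Il15 (26.5 ± 1.53), Il7 (4.58 ± 0.244), Il18 (3.71 ± 0.431), Tnfsf10 (2.50 ± 0.645) and Il6 (0.115 ± 0.0529), of which only Il18bp and Il15 overlapped. In DENR KO cells with IFNγ, Il15 (17.7 ± 0.499 TPM) stood above Il18bp (16.7 ± 0.580) without overlap.

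**Figure D1:**
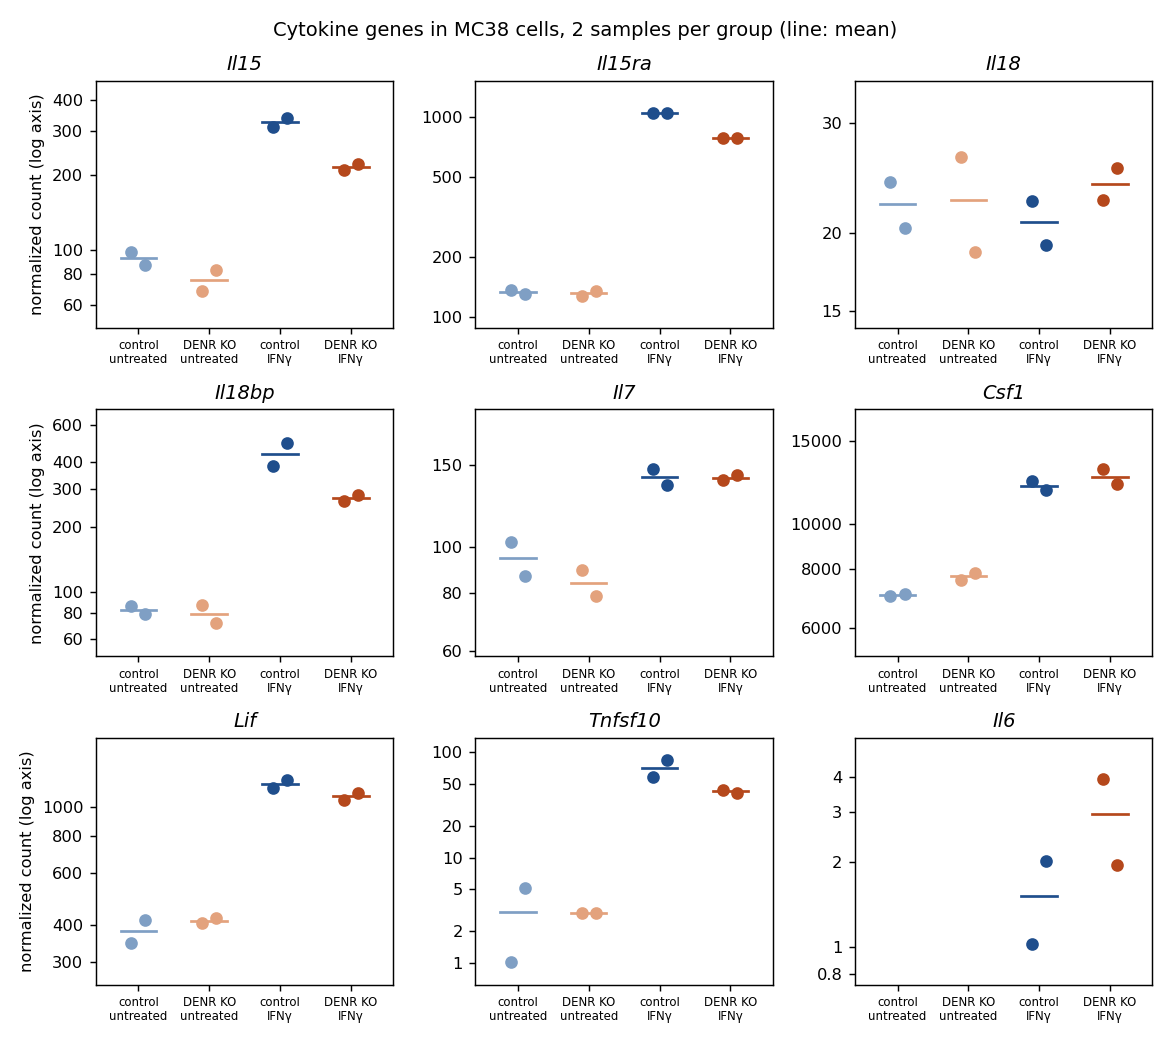
Normalized counts (reads divided by the size factor of the sample, log axis) of the 9 listed genes in the 4 groups; each point is 1 sample and each line the mean of 2. With IFNγ, both DENR KO samples of Il15, Il15ra, Il18bp, Tnfsf10 and Lif lie below both control samples. Untreated, this holds for Il15, and the DENR KO samples of Csf1 lie above both controls. The share of all genes separated in this way was not counted. Il6 was listed only in the IFNγ table.

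The first comparison asked what DENR loss did to these genes in IFNγ-treated cells. Both members of the IL-15 pair and the IL-18 inhibitor were lower in DENR KO cells: Il15 at 66.3%, Il15ra at 75.0% and Il18bp at 62.1% of the control mean. These were the 3 members called, all lower, of the 8 tested (limma on log2(normalized count + 1), adjusted p under 0.05). Of all 13928 genes tested, 2.25% were called lower and 1.8% higher. The median log2 difference of the 8 members was −0.28, against −0.00036 over all genes tested.

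The ligand Il15 had 313 and 339 normalized counts in control and 211 and 222 in DENR KO cells with IFNγ. Both DENR KO samples were below both controls, with a log2 difference of −0.59 (SE 0.12, 95% interval −0.84 to −0.34, adjusted p = 0.0035). The call did not hold with DESeq2 on the recovered reads, which gave the same size of difference with an adjusted p of 0.062. The other 12 fits kept it, with adjusted p-values from 1.8e-04. Il15ra, its presenting chain, had 1051 and 1047 normalized counts in control and 787 and 787 in DENR KO cells. The replicates of Il15ra lay closer together than those of any other called member, and the groups were apart by −0.41 on the log2 scale (SE 0.076, 95% interval −0.57 to −0.26, adjusted p = 0.0014). That difference is smaller than the 0.5 that was also required in one alternative.

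On the IL-18 side, the cytokine and its inhibitor differed in both level and behavior. Il18 itself was scarce, with 22.5 and 19.1 normalized counts in control and 22.6 and 25.4 in DENR KO cells with IFNγ. The DENR KO samples were slightly above the controls, but the difference of 0.20 was not called (95% interval −0.54 to 0.94, adjusted p = 0.89), and at this depth a change of that size could not be told from none. Il18bp had 386 and 493 normalized counts in control and 265 and 281 in DENR KO cells. All DENR KO samples were lower, with a log2 difference of −0.68 (SE 0.12, 95% interval −0.92 to −0.43, adjusted p = 8.7e-04). The control replicates of Il18bp were spread more than those of Il15 or Il15ra, and the difference ranged from −0.85 to −0.50 when 1 sample was left out. All alternatives called it.

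The death ligand Tnfsf10 had the largest fitted difference of the 8 with IFNγ and was not called. It had 58.4 and 84.6 normalized counts in control and 44.3 and 41.0 in DENR KO cells with IFNγ, 141 against 87 reads in all. The groups did not overlap, and the log2 difference was −0.71 (SE 0.25, 95% interval −1.23 to −0.19, adjusted p = 0.14). It rested on the control replicates: without control replicate 1 the difference was −0.97 and passed the threshold (adjusted p = 0.039), and without control replicate 2 it was −0.45.

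The growth factors and the gp130 cytokine showed no called difference with IFNγ. Csf1, the macrophage growth factor, had 12309 and 11799 normalized counts in control and 13056 and 12129 in DENR KO cells; the groups overlapped, and the interval of the log2 difference ran from −0.05 to 0.17 (adjusted p = 0.70). Lif had 1168 and 1241 normalized counts in control and 1061 and 1123 in DENR KO cells, lower in both DENR KO samples, at −0.14 (SE 0.074, 95% interval −0.29 to 0.01, adjusted p = 0.42). Il7 had 147 and 136 against 139 and 143 normalized counts, with overlapping groups and an interval from −0.33 to 0.32 (adjusted p = 0.99). None of the intervals of Csf1, Lif, Il7 and Il18 reached the −0.59 of Il15, although that of Il18 came close to it. Il6 was below the filter on low values with 1 and 2 reads in control and 4 and 2 in DENR KO cells, a ratio of 1.93 with a counting interval of 0.412 to 11.9.

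**Figure D2:**
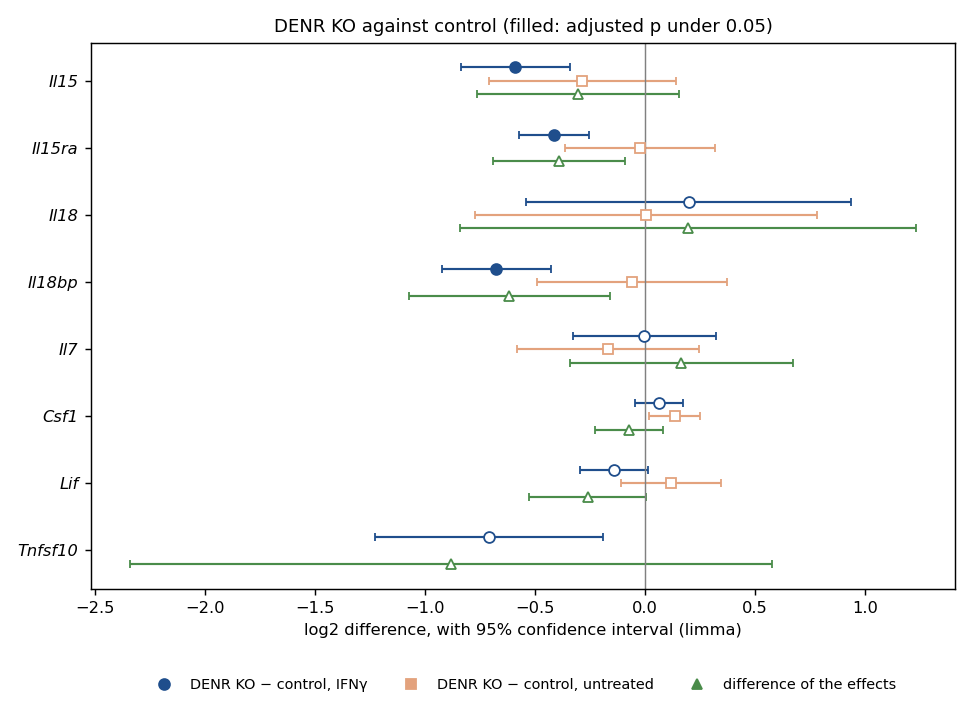
log2 difference of DENR KO against control for the 8 members tested, with 95% intervals from limma, with IFNγ (circles), untreated (squares) and as the difference of the 2 effects (triangles); filled symbols have an adjusted p under 0.05. Only Il15, Il15ra and Il18bp with IFNγ are filled, at −0.59, −0.41 and −0.68; Tnfsf10 was not tested untreated.

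The second comparison asked whether the same genes differed before IFNγ was given. No member was called in untreated DENR KO cells: limma and edgeR called 0 of 7 tested and DESeq2 0 of 6, and 1 member, Csf1, had an unadjusted p under 0.05. Few genes of any kind were called in this table, 0.15% lower and 0.429% higher of the 13998 tested (21 and 60 genes, or 29 and 44 when every sample was centred on its median). The median log2 difference of the 7 members was −0.02, against 0.0019 over all genes tested.

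Il15 had 98.6 and 86.7 normalized counts in untreated control and 68.7 and 83.5 in untreated DENR KO cells. Both DENR KO samples were below both controls, but the log2 difference of −0.28 had an interval from −0.71 to 0.14 (adjusted p = 0.72). Il15ra was closely matched between genotypes, with 137 and 130 against 128 and 135 normalized counts and a difference of −0.02 (95% interval −0.37 to 0.32, adjusted p = 0.98). Il18bp had 85.5 and 78.6 normalized counts in control and 86.3 and 71.7 in DENR KO cells, and the groups overlapped (difference −0.06, 95% interval −0.49 to 0.37, adjusted p = 0.96). Il18 had 24.1 and 20.4 against 26.5 and 18.7 normalized counts, again with overlap.

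Csf1 was slightly higher in untreated DENR KO cells, with 7588 and 7864 normalized counts against 7002 and 7074 in control. The groups did not overlap, but the difference of 0.13 (95% interval 0.02 to 0.25) had an adjusted p of 0.45. Lif had 348 and 416 normalized counts in control and 405 and 422 in DENR KO cells, and these overlapped (difference 0.12, adjusted p = 0.80). Il7 had 103 and 86.7 against 89.3 and 78.6 normalized counts, also overlapping (−0.17, adjusted p = 0.85). Tnfsf10 was below the filter, with 1 and 5 reads in control and 3 and 3 in DENR KO cells, a ratio of 0.969 with a counting interval of 0.259 to 3.62.

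The third comparison set IFNγ-treated beside untreated cells in either genotype. The 2 tables were normalized separately, so ratios across them are a description with no test. All members listed in both tables, except Il18, were higher in both IFNγ-treated samples than in both untreated samples of the same genotype. The share of all genes with such a separation was not counted, so this is no result about the members as a group. Tnfsf10, near the floor untreated, had a ratio of 23.6 in control (counting interval 10.6 to 65.3) and 14.5 in DENR KO cells (6.39 to 40.5), both resting on 6 untreated reads. Il15ra followed with ratios of 7.88 in control and 6.01 in DENR KO cells, Il18bp with 5.36 and 3.45, Il15 with 3.52 and 2.84 and Lif with 3.15 and 2.64. Csf1 (1.71 and 1.63) and Il7 (1.49 and 1.68) had lower ratios. Il18 had ratios of 0.935 and 1.06 and overlapping samples in both genotypes.

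The step between untreated and IFNγ-treated means was smaller in DENR KO cells for the called members. The mean of Il15 was higher with IFNγ by 233 normalized counts in control and by 140.1 in DENR KO cells, a step 60.0% as large. For Il15ra this share was 71.6%, for Il18bp 54.2%, for Tnfsf10 58.0% and for Lif 82.5%. For Csf1 it was 97.0%, and for Il7 the step was larger in DENR KO than in control cells (122%). These shares have no error of their own and share their samples with the comparisons above. The called members were called for lower values in DENR KO cells with IFNγ. Their smaller step largely follows from that choice and is no further result.

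**Figure D3:**
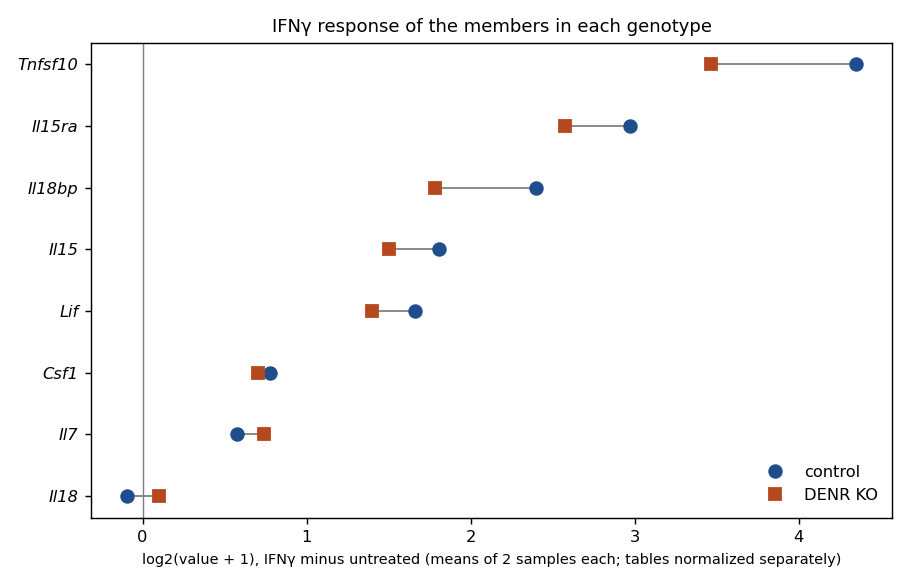
Difference of log2(normalized count + 1) between IFNγ-treated and untreated cells for the 8 members listed in both tables, in control (circles) and DENR KO cells (squares), from means of 2 samples. Control exceeds DENR KO for Tnfsf10 (4.35 and 3.47), Il15ra (2.97 and 2.58), Il18bp (2.40 and 1.78), Il15, Lif (1.66 and 1.40) and Csf1, and not for Il7 and Il18; for none of them did the difference pass its test.

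A test of whether the DENR KO effect itself depended on treatment, the interaction of genotype and IFNγ in all 8 samples, does not depend on how the tables were scaled. With limma, edgeR and DESeq2 alike, 0 of the 8 members were called and 2 had an unadjusted p under 0.05. These were Il18bp, at −0.62 (SE 0.22, 95% interval −1.07 to −0.16, adjusted p = 0.51), and Il15ra, at −0.39 (SE 0.15, 95% interval −0.69 to −0.09, adjusted p = 0.56). For Il15 the value was −0.30 (95% interval −0.76 to 0.15, adjusted p = 0.99) and for Lif −0.26 (adjusted p = 0.89). Tnfsf10 passed the filter of this test only through the IFNγ-treated samples, where it is high, and its interval was wide (−2.34 to 0.58), so it adds nothing to the count of 8. Of all 13998 genes tested, 0.429% were called lower and 0.0214% higher. A call with IFNγ and none without it therefore does not show that the effect on Il15, Il15ra or Il18bp differed between the treatments.

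The receptors of these cytokines were read from a list of 19 genes, 14 of which passed the filter. With IFNγ, 3 of the 14 were called lower in DENR KO cells and 0 higher, against 2.25% and 1.8% of all genes tested. Untreated, 1 was called lower and 1 higher, against 0.15% and 0.429%. The higher one, Tnfrsf11b, passed the filter only through the DENR KO samples, where it is high. Of the 14, 9 had a difference below 0 with IFNγ and 5 untreated. The share of all genes below 0 was not counted. Their median was −0.00036 with IFNγ and 0.0019 untreated, so these counts are no result about the receptors. Il1rl1, the IL-33 receptor, was the most abundant per length and the one called lower with both treatments. It had 9155 and 9964 normalized counts in control and 6484 and 6758 in DENR KO cells with IFNγ (−0.53, SE 0.055, adjusted p = 6.7e-07), and 6100.0 and 6267 against 4755 and 4650 untreated (−0.39, SE 0.058, adjusted p = 2.7e-04). The genotypes did not overlap with either treatment, while its ligand Il33 was listed in no table.

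Il18rap, the accessory chain of the IL-18 receptor, had 390 and 397 normalized counts in control and 215 and 288 in DENR KO cells with IFNγ (−0.66, SE 0.13, adjusted p = 0.0024). Without DENR KO replicate 1, the difference was −0.45 and missed the threshold (adjusted p = 0.057). The binding chain of that receptor, Il18r1, had at most 3.07 normalized counts in any sample. Osmr, a gp130 partner for oncostatin M, had 895 and 941 normalized counts in control and 578 and 626 in DENR KO cells with IFNγ (−0.61, SE 0.084, adjusted p = 4.0e-05), and 149 and 153 against 151 and 199 untreated. It was the only listed gene with a called interaction, at −0.81 (SE 0.17, adjusted p = 0.022), a call that was lost when any of 5 of the 8 samples was left out, among them both of the control and both of the DENR KO samples with IFNγ. Tnfrsf11b, the decoy receptor osteoprotegerin, was scarce and higher in untreated DENR KO cells, with 36.3 and 39.3 normalized counts against 10.1 and 7.14 (2.03, SE 0.41, adjusted p = 0.012), and this call was lost with any 1 of the 4 samples left out. Its untreated means were 8.60 in control and 37.8 in DENR KO cells, on either side of the filter of 10. Its call therefore adds nothing to the counts of called receptors. The chains shared with other cytokines, Il2rg and Il6st, the TRAIL receptor Tnfrsf10b and the LIF receptor Lifr were measured and not called. Csf1r, the receptor of the most abundant member, had at most 4.02 normalized counts.

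**Figure D4:**
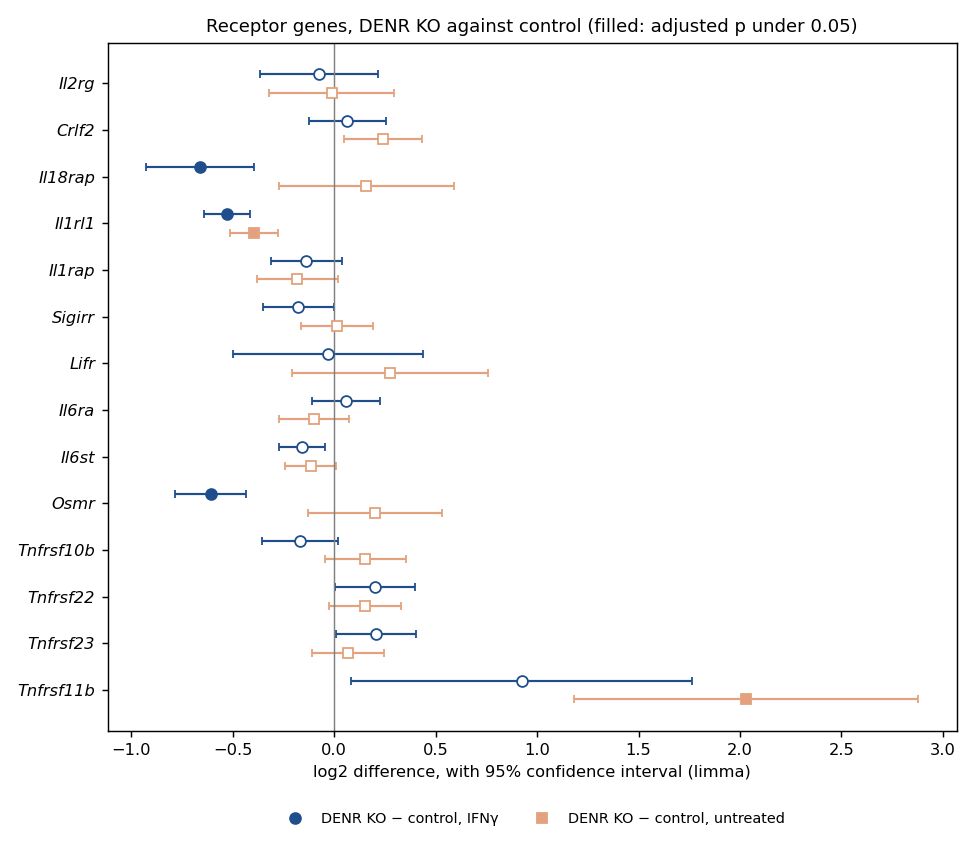
log2 difference of DENR KO against control, with 95% intervals from limma, for the 14 receptor genes tested with IFNγ (circles) and untreated (squares); filled symbols have an adjusted p under 0.05. Il18rap, Il1rl1 and Osmr with IFNγ and Il1rl1 untreated are filled below 0, and Tnfrsf11b untreated above 0.

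No difference was called among other ligands of the same families. Of all genes tested by limma, 4.06% were called with IFNγ, 0.579% untreated and 0.45% in the interaction. Of 28 related ligand genes, 9 passed the filter with IFNγ and 8 untreated, and 0 were called in either table or in the interaction by limma. With so few genes tested, 0 calls is no result about these ligands. The best measured of them was Il34, the second ligand of the macrophage growth factor receptor, with 1829 and 1801 normalized counts in control and 1877 and 1880.1 in DENR KO cells with IFNγ (95% interval of the log2 difference −0.08 to 0.18). Tnf was listed at 0 or 1 read per sample, and Il1b and Osm were not listed. Of 11 genes for the processing of IL-1 family cytokines, 7 were tested with IFNγ. Among them, 1 was called lower and 0 higher, against 2.25% and 1.8% of all genes tested. The called gene was Casp4, an inflammatory caspase, with 611 and 679 normalized counts in control and 353 and 451 in DENR KO cells (−0.69, SE 0.11, adjusted p = 4.0e-04). Casp1, the enzyme that cuts pro-IL-18, had 43.0 and 44.3 against 45.3 and 36.1 normalized counts and was not called, and the inflammasome adaptor Pycard had at most 2.95. All 11 genes of the TRAIL death pathway were tested, and 0 were called in any of the 3 tests by limma. At the shares over all genes given above, this is no result about the pathway. The median differences with IFNγ were −0.11 for the receptors, −0.005 for the related ligands, −0.22 for the processing genes and −0.04 for the death pathway.

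Some marker genes differed between genotypes as well. The fibroblast list summed to 386 to 402 TPM in control and 347 to 352 in DENR KO cells with IFNγ. Without IFNγ, the sums were 396 to 397 and 357 to 364. Of its 6 genes, 5 were at 10 or more normalized counts in every sample. With IFNγ, the lower sum came from Dcn, at a mean of 196 TPM in control and 143 in DENR KO cells. Col1a2 (144 and 147 TPM), Pdgfra and Pdgfrb had higher means in DENR KO cells, and Col1a1 a slightly lower one. Between untreated genotypes, Dcn also differed most (144 and 115 TPM), Col1a2 was lower too (179 and 171), and Pdgfrb was higher. Dcn, a matrix proteoglycan, was lower with IFNγ (−0.47, adjusted p = 4.2e-05) and untreated (−0.31, adjusted p = 0.013), the latter call being lost when any 1 of 3 of the 4 samples was left out. Pdgfrb was higher with IFNγ (0.43, adjusted p = 0.0085), a call lost with DESeq2 and without DENR KO replicate 2. The leukocyte list was lower in control cells (from 7.81 TPM) than in DENR KO cells (9.31 to 10.1 TPM) with IFNγ, without overlap. This was nearly all Cd68, the only one of the list that passed the filter, whose own difference was not called (0.27, adjusted p = 0.71), and Cd3e, Adgre1 and Ptprc were not listed there. The part of these shifts in the differences of the cytokine genes was not tested.

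The genes most like 3 of the members over the 8 samples were found among 10320 named genes that averaged 100 or more normalized counts, by the root mean square difference of their centred log2 profiles. Nearest to Il15 were Ly6c1 (0.105), Apobec3 (0.138) and Lrrtm2 (0.143). Nearest to Il18bp were Casp4 (0.123), Socs1 (0.146), a feedback inhibitor of cytokine signaling, and Crem (0.156). Nearest to Lif were Tapbp (0.0960), Erap1 and Ddx58. The profiles are dominated by the IFNγ step, which the tables scale separately, so the order among near neighbours is a description of these 8 samples.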

How the data were processed

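Poly-T selected RNA of 8 MC38 samples (4 groups of 2) was sequenced as 150 bp paired ends. The submitters' processing notes name HISAT2 2.0.5, StringTie 1.3.3b, featureCounts 1.5.0-p3 and DESeq2 1.20.0, and the build mm9, while the coordinates in the tables are those of GRCm38. The values the authors deposited, in 1 table per treatment, are a signal per gene and sample: read counts divided by 1 size factor (0.976 to 1.02), called normalized counts here. The tables also hold the authors' group means, fold changes and p-values, which were not used.

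All values (100%) came out whole when divided by the lowest value above 0 of their sample (tolerance 0.001), which gave back the reads. The test planned for normalized values was used: limma 3.58.1 (R 4.3.3, intensity trend, robust moderation) on log2(value + 1), for genes averaging 10 or more, within a table, and for the interaction over the 8 samples on the 20432 genes in both tables, with Benjamini-Hochberg adjustment over all genes and calls at an adjusted p under 0.05. This scale understates changes of low genes. edgeR 4.0.16 and DESeq2 1.42.0 on recovered reads, other pseudocounts (0.1, 10), filters (0, 50), median centring, an added log2 threshold of 0.5, a replicate block, a fit of all 8 samples and each sample left out were the alternatives. The test with IFNγ and that of the interaction were also run on simulated data with limma, edgeR and DESeq2, and the untreated test was not. Counting intervals are exact (Clopper-Pearson, 95%) and cover counting error only. TPM used the exon lengths in the tables. The members, gene lists and tests were chosen with earlier results of these data known. Every member is named, and of the other lists (receptors, related ligands, processing, TRAIL death pathway, and epithelial, leukocyte, fibroblast and endothelial markers) those with an adjusted p under 0.05, at most 6 per list and test; other genes named for their level were chosen after their values were seen. Replicates of a group differed by more than sampling noise (chi-square per degree of freedom 3.73 to 6.45).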

Additional observations from a re-analysis of the deposited data

Results flagged for a closer look

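Osmr stood out because its DENR KO effect differed between treatments by a test of the difference itself: the effect with IFNγ was lower than the untreated effect by −0.81 on the log2 scale (adjusted p = 0.022, interaction in limma), and the call was lost with an adjusted p up to 0.23 when 1 of 5 samples was left out. Groups of 2 samples were too small for a test of outlying samples.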

How the results depend on the processing

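The counts of called members were 3 with IFNγ, 0 untreated and 0 in the interaction. They kept their side under all alternatives: 2 to 4 with IFNγ (2 with DESeq2, where Il15 had an adjusted p of 0.062, and 2 with a log2 difference beyond 0.5, where Il15ra dropped out, and 4 without control replicate 1, where Tnfsf10 at −0.97 was added), and 0 in each alternative of the other 2 tests. The median with IFNγ (−0.28) ranged from −0.30 to −0.26 with 1 sample left out and was −0.41 over members with a mean of at least 50, which leaves out Il18. The untreated median (−0.02) ranged from −0.15 to 0.07. The median difference of the IFNγ log2 ratio between genotypes (−0.28; medians 1.73 in control and 1.45 in DENR KO) ranged from −0.36 to −0.11, the last without untreated control replicate 1.

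Changes of sign arose only for differences that were not called. With 1 sample left out, Il7 with IFNγ ranged from −0.058 to 0.049. Untreated, Il15ra ranged from −0.062 to 0.016, Il18 from −0.24 to 0.24 (and was −0.024 with median centring), Il18bp from −0.19 to 0.074, Lif from −0.011 to 0.25 and Il18rap from −0.10 to 0.42. In the interaction, Il18 ranged from −0.046 to 0.44 and Denr from −0.096 to 0.063. Where a group was left with 1 sample, that sample was assumed to vary like the others.

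With the replicate number as a block, the calls over all genes rose from 565 to 1455 with IFNγ, from 81 to 257 untreated and from 63 to 102 in the interaction, while the members stayed at 3, 0 and 0. The deviations of same-numbered samples were correlated between groups over 10415 genes. The correlation was 0.220 for control and DENR KO with IFNγ and 0.228 for control untreated and with IFNγ. For the other pairs of groups it ran from −0.017 (control and DENR KO, untreated) to 0.084. No source says that a number marks a shared culture or day, so whether same-numbered samples share an effect is not known. DESeq2 called 345 genes with IFNγ and 50 untreated. Leaving out untreated control replicate 2 gave 35 calls untreated, and the interaction had 37 to 93 calls with 1 sample left out (37 without control IFNγ replicate 2, 39 without untreated DENR KO replicate 1, 93 without untreated control replicate 1). Depth limits Il6, Il18 and Tnfsf10, which had 1 to 84 reads per sample.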
